A study of Mus musculus with 16 samples.

Results

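The genes around progranulin, its partners and its neighbours on the chromosome, were followed in mouse bone-marrow-derived macrophages. They were the rows of the deposited count table whose symbol is Grn, Sort1, Lrp1, Psap, Tmem106b, Slpi, Fam171a2 or Slc25a39, that is 8 of 56980 rows, each matched once, and all 8 were among the 15385 genes that passed the filter on low counts. In the order given, their gene IDs are ENSMUSG00000034708, ENSMUSG00000068747, ENSMUSG00000040249, ENSMUSG00000004207, ENSMUSG00000029571, ENSMUSG00000017002, ENSMUSG00000034685 and ENSMUSG00000018677. Stocks of macrophages had been frozen from WT (Grn+/+) mice or from Grn-/- mice, called GrnKO here. All mice were labelled as 12-week-old males of the C57Bl/6J background and carried a knock-in of the human transferrin receptor, the WT controls included. The thawed cells, kept in M-CSF, received Cas9 protein with guides for Tfeb, Tfe3 and Mitf, all 3 encoding transcription factors of lysosomal genes (called TKO), or with a control guide that cuts at Rosa26. RNA collected 10 days later was sequenced as 3′ tags. There were 4 groups, WT and GrnKO with the Rosa26 edit and WT and GrnKO with the TKO edit, with 4 samples each from separate animals per the series design, in 4 batches with 1 sample of each group in each. The edited cells were bulk populations, not clones, and the labels give neither the share of cells edited nor what the Grn allele removes.

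Progranulin is a secreted glycoprotein that is also delivered to the lysosome, where proteases cut it into granulins. Sortilin, the product of Sort1, takes it up from the cell surface, and prosaposin, the product of Psap, carries it to the lysosome in a complex that uses LRP1 or the mannose 6-phosphate receptor. In people, loss of 1 copy of GRN causes frontotemporal dementia, and variants near TMEM106B modify that risk. Macrophages and microglia are among the cells that express Grn most strongly.

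The libraries held 7069527 to 32969630 counts, the fewest in WT Rosa26 replicate 1, and GrnKO Rosa26 libraries were the deepest in every batch. Grn levels went with the genotype label in all 16 libraries, but transcripts of the sex chromosomes went against the label of male mice. Xist, which is made from the silenced X, lay between 169 and 269 CPM (counts scaled to a common library size by TMM) in 12 libraries, the Y-linked Ddx3y reached 108 to 112 CPM in the WT pair of batch 3 and 97.3 to 122 CPM in the GrnKO pair of batch 4, and the WT pair of batch 2 held both. Genotype comparisons are therefore not balanced for these transcripts in batches 2, 3 and 4, and each was also run without batches 3 and 4. That run keeps the imbalance of batch 2 and has fewer libraries, so it cannot settle the part of these transcripts. In every batch the Rosa26 and TKO libraries of 1 genotype were alike in these transcripts, so they may not be independent of each other. The main fit does not pair them, so its p-values for genotype comparisons may be too small. Of the edited genes, Tfe3 fell in both genotypes (WT log2 fold change -0.90 ± 0.17 SE, edgeR adjusted p = 0.0108; GrnKO -0.51 ± 0.17, adjusted p = 0.0351), but 3′ tags count an edited mRNA as well, so they do not measure the editing. Mitf rose in GrnKO (0.25 ± 0.09, adjusted p = 0.0490), and the other tests of Mitf and Tfeb did not pass. The 8 macrophage markers were all tested, and their summed level with the Rosa26 edit was 8471 to 10799.5 CPM in WT and 6416 to 6838 CPM in GrnKO, and with the TKO edit 10187 to 10382 CPM in WT and 8029 to 8997 CPM in GrnKO. The sum was lowest in GrnKO Rosa26, without overlap with the other groups, and most of it was Lyz2, but the markers did not move together. With the loss of Grn in Rosa26 cells Lyz2 (-0.55 ± 0.07, adjusted p = 5.3e-06), Adgre1 and Itgam fell, Mertk rose (0.95 ± 0.10, adjusted p = 1.1e-06), and Csf1r gave 0.11 ± 0.07 (adjusted p = 0.188). Their part in the results was not tested. In bulk RNA, fewer cells of a type and less RNA per cell cannot be told apart.

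MiT/TFE factors bind E-boxes with the core CACGTG and related sequences such as TCACATG. The promoters of both genes with a match, and that of Psap as one without, are shown here. RefSeq (build GRCm38.p6, which is not the GRCm39 build of the deposited tables) gave promoter windows for 6 of the 8 genes, with 250 bases before to 50 after the annotated start. The bases before the start are printed for 3 of them, 5′ to 3′ on the strand of the gene, with a motif in capitals. Grn lies at chr11:102430257-102430506 on the plus strand, Slpi at chr2:164356508-164356757 on the minus strand and Psap at chr10:60277378-60277627 on the plus strand.

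Grn: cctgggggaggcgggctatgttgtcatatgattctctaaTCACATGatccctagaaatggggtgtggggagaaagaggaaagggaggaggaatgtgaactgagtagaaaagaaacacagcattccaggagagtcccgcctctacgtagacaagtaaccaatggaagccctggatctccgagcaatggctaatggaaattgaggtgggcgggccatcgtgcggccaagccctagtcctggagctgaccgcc

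Slpi: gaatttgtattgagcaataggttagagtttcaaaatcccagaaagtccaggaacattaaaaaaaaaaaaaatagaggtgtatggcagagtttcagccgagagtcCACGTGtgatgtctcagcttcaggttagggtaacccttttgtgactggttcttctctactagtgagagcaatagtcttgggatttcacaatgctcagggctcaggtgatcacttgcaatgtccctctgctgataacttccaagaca

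Psap: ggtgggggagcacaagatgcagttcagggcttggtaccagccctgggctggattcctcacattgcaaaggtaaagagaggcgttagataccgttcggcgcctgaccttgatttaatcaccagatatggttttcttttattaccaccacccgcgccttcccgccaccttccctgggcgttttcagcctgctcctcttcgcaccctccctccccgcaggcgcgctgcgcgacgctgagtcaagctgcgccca

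The search covered both strands for CACGTG, its longer form TCACGTG and TCACATG, and no other related sequence was searched. Grn held TCACATG with its first base at -211 from the start, and Slpi held CACGTG at -146. No match was found in either Psap window or in those of Lrp1, Tmem106b and Slc25a39. Of all 32851 promoters of that length, 7.15% held CACGTG, 3.77% TCACGTG, every one of them also a CACGTG match, and 3.99% TCACATG. These matches describe letters only and do not show binding.

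Grn, which encodes progranulin, was at 3693, 2875, 3334 and 3072 CPM in the WT Rosa26 libraries of batches 1 to 4 and at 2522, 3169, 3125 and 3224 CPM in the WT TKO libraries. In GrnKO cells it was at 50.0, 54.8, 45.4 and 44.2 CPM in the Rosa26 libraries and at 45.2, 56.1, 51.5 and 40.7 CPM in the TKO libraries. Every GrnKO library lay far below every WT library, and within a genotype the 2 edits overlapped. The WT means were 3244 ± 354 CPM (SD, n = 4) with the Rosa26 edit and 3009.9 ± 328 CPM with the TKO edit, and the GrnKO means 48.6 ± 4.80 and 48.4 ± 6.79 CPM. Loss of Grn was -6.06 ± 0.13 in Rosa26 cells (log2 fold change ± SE by edgeR, as for all changes below, adjusted p = 3.2e-16), a 66.9-fold difference, and -5.96 ± 0.13 in TKO cells (adjusted p = 4.2e-16). The residual signal rested on 820 to 1800 counts per GrnKO library. Where in the gene these tags lie cannot be read from a table of counts per gene.

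The edit did not pass the test for Grn in either genotype. The change was -0.11 ± 0.10 in WT (adjusted p = 0.652), with batch 1 alone at -0.55 and the others between -0.09 and 0.14, and -0.01 ± 0.11 in GrnKO (adjusted p = 0.957). The interaction, the edit's effect in GrnKO minus that in WT, was 0.10 ± 0.15 (adjusted p = 0.698).

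**Figure D1:**
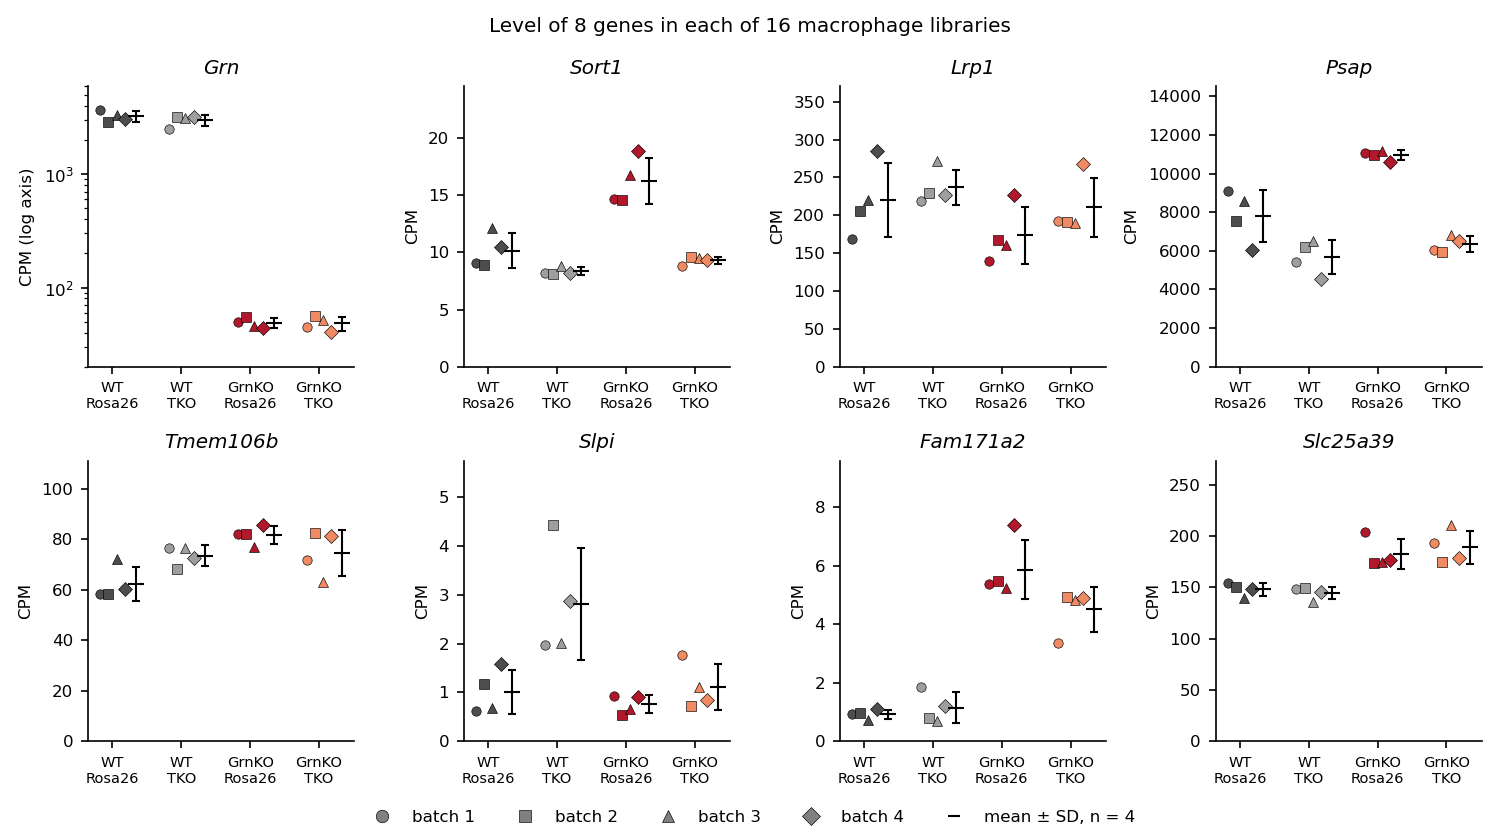
Level of the 8 genes in CPM (vertical axes, logarithmic for Grn and linear from 0 for the others) in each of the 16 libraries, by group along the horizontal axes. Marker shapes give the batch and the bars the mean ± SD of 4 libraries. Grn separates the genotypes, Sort1 and Psap stand highest in GrnKO Rosa26, and Fam171a2 and Slc25a39 are higher in both GrnKO groups.

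The count of the 8 genes that passed the test (adjusted p under 0.05 over all genes tested) has to be read against the share of all genes that did. For the loss of Grn in Rosa26 cells 7 of the 8 passed, Slpi being the exception, against 44.6% of all tested genes, so a call there sets a gene little apart from the rest. For the loss of Grn in TKO cells 4 passed (Grn, Slpi, Fam171a2 and Slc25a39), against 4.99%. Grn is the gene knocked out, so its call in any comparison of GrnKO with WT was set by the design, though the counts include it. For the edit 2 passed in WT (Psap and Slpi), against 3.35%, and 3 in GrnKO (Sort1, Lrp1 and Psap), against 32.6%. The interaction passed for Sort1, against 13.4% of all genes. Between GrnKO TKO and WT Rosa26 cells 3 differed (Grn, Fam171a2 and Slc25a39), against 12.7%. Each group of libraries serves in 2 or 3 of these pairwise comparisons, so they share samples, and the values are set side by side without a correlation between them.

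**Figure D2:**
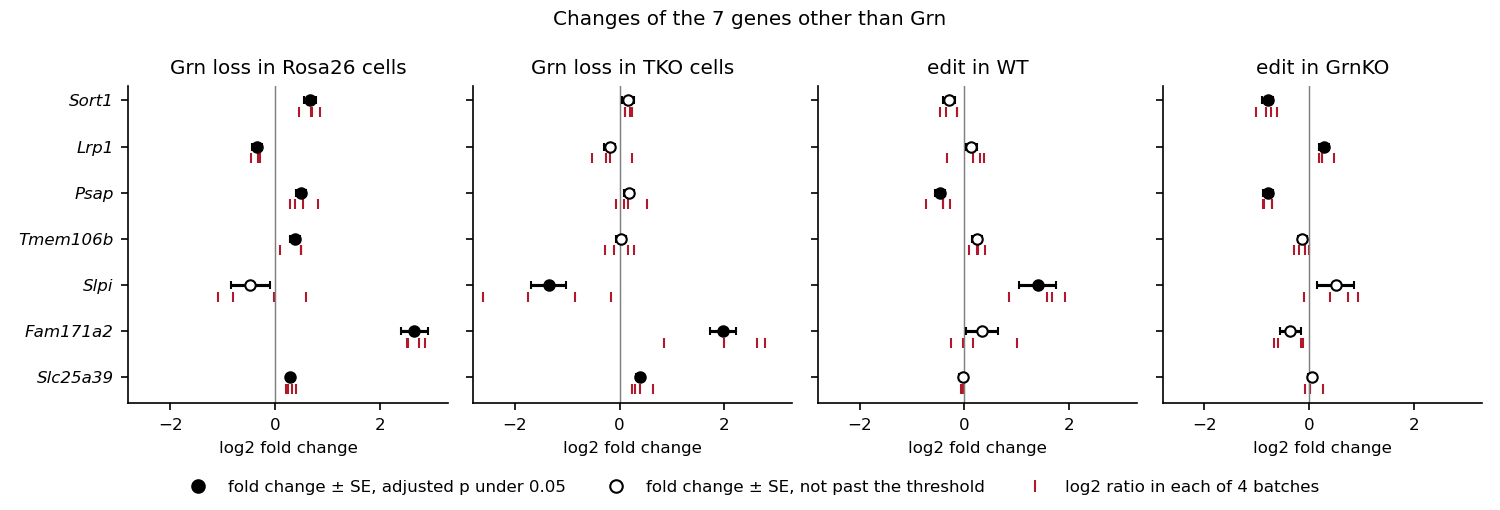
Log2 fold change (horizontal axes) of the 7 genes other than Grn in 4 comparisons, each against its own control group. Circles with bars are the edgeR change ± SE, filled where the adjusted p is under 0.05, and red ticks are the log2 ratio within each of the 4 batches. Fam171a2 and Slc25a39 are to the right of 0 in every batch for both comparisons of Grn loss, while Sort1 and Psap are to the left of 0 in every batch for the edit in both genotypes.

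Sort1 and Psap, the sorting receptor and the lysosomal carrier of progranulin, shared a pattern over the groups. Both were higher in GrnKO than in WT Rosa26 cells, and both were lower in GrnKO TKO than in GrnKO Rosa26 cells, with no overlap of the libraries in either comparison. In TKO cells the difference between genotypes did not pass the test for either gene. Of all tested genes, 44.6% were called for the loss of Grn in Rosa26 cells and 32.6% for the edit in GrnKO. The share of all genes without overlap was not computed, here or for any gene below. Igf2r, Cln8, Lrp12, Gla and Galc, given below, also rose in the first comparison and fell in the second. The rise and fall are thus not particular to Sort1 and Psap.

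Sort1 was at 9.08, 8.90, 12.2 and 10.4 CPM in the WT Rosa26 libraries of batches 1 to 4 and at 14.7, 14.6, 16.8 and 18.9 CPM in GrnKO Rosa26. With the edit it was at 8.22, 8.08, 8.84 and 8.17 CPM in WT TKO and at 8.83, 9.56, 9.46 and 9.35 CPM in GrnKO TKO. The 4 GrnKO Rosa26 libraries were above all others, and the WT TKO libraries were all below those of WT Rosa26, if narrowly. The WT means were 10.1 ± 1.51 CPM (SD, n = 4) with the Rosa26 edit and 8.33 ± 0.348 CPM with the TKO edit, and the GrnKO means 16.2 ± 2.03 and 9.30 ± 0.328 CPM.

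Sort1 rose with the loss of Grn in Rosa26 cells by 0.67 ± 0.11 (edgeR adjusted p = 7.3e-05), 1.59-fold, by 0.46 to 0.86 in the single batches and by 0.69 in batch 1, where all 4 libraries were alike in their sex-chromosome transcripts. The edit in GrnKO gave -0.79 ± 0.11 (adjusted p = 2.6e-05), lower in 4 of 4 batches. The edit in WT gave -0.29 ± 0.12 (adjusted p = 0.203), also lower in 4 of 4 batches but not past the threshold. The interaction was -0.51 ± 0.16 (edgeR adjusted p = 0.0380), so the edit lowered Sort1 more in GrnKO than in WT, but that call did not hold in 18 of 30 alternatives. With batch as a block within each genotype it was -0.51 (adjusted p = 0.0219). Without the replicate block it was -0.50 (adjusted p = 0.0822), without batches 3 and 4 it was -0.54 (adjusted p = 0.25), and leaving out any 1 of 13 of the 16 libraries raised the adjusted p to between 0.0508 and 0.103 at a change of -0.55 to -0.43. In GrnKO TKO against WT Rosa26 cells Sort1 gave -0.12 ± 0.11 (adjusted p = 0.528).

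Psap encodes prosaposin, which is cut into the 4 saposins that help lysosomal enzymes reach their lipids. It took 0.755 ± 0.108% of all counts in WT Rosa26 and 1.10 ± 0.0160% in GrnKO Rosa26 (SD, n = 4). By library it was at 9079, 7529.8, 8562 and 6034 CPM in WT Rosa26 and at 11082, 10952, 11182 and 10616 CPM in GrnKO Rosa26, batches 1 to 4. After the edit it was at 5428, 6214, 6485 and 4541 CPM in WT TKO and at 6068, 5937, 6835 and 6506 CPM in GrnKO TKO. The GrnKO Rosa26 libraries were the highest and lay close together, while WT Rosa26 replicate 4 overlapped the WT TKO range.

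Psap rose with the loss of Grn in Rosa26 cells by 0.50 ± 0.09 (edgeR adjusted p = 2.8e-04), 1.42-fold. The rise was least in batch 1 (0.29), where the libraries were alike in their sex-chromosome transcripts, and most in batch 4 (0.82). Psap fell with the edit in GrnKO by 0.79 ± 0.09 (adjusted p = 8.8e-06), between 0.71 and 0.88 in the batches, to a group mean of 6337 ± 412 CPM. In WT the edit gave -0.46 ± 0.09 (adjusted p = 0.00846), from 7801 ± 1343 to 5667 ± 875 CPM, lower in 4 of 4 batches. That call in WT was lost without WT TKO replicate 4 (-0.40, adjusted p = 0.0531), without batch 1 (-0.36, adjusted p = 0.131), without the replicate block (-0.46, adjusted p = 0.0537) and in limma on the authors' values (-0.37, adjusted p = 0.0661 with pseudocount 1 and 0.0619 with 0.5). With batch as a block within each genotype it held (-0.46, adjusted p = 2.6e-04).

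The difference between the 2 edit effects on Psap, -0.33 ± 0.13, did not pass (edgeR adjusted p = 0.102), but it passed in 6 of 30 alternatives. It passed without WT Rosa26 replicate 1 (-0.42, adjusted p = 0.0427) or GrnKO TKO replicate 4 (-0.42, adjusted p = 0.0492) and with no filter (-0.44, adjusted p = 5.5e-04). It passed also in limma on the authors' values (-0.51, adjusted p = 0.0291 with pseudocount 1 and 0.0274 with 0.5) and with batch as a block within each genotype (-0.33, adjusted p = 0.0191). The loss of Grn in TKO cells gave 0.17 ± 0.09 (adjusted p = 0.331). In GrnKO TKO cells Psap stood below WT Rosa26 by a margin at the threshold (-0.29 ± 0.09, adjusted p = 0.0511). That difference passed in 8 of 30 alternatives, among them DESeq2 (-0.29, adjusted p = 0.0357) and without batches 3 and 4 (-0.47, adjusted p = 0.0236). It passed also without WT Rosa26 replicate 4 (-0.37, adjusted p = 0.0226), GrnKO TKO replicate 4 (-0.37, adjusted p = 0.0186) or WT TKO replicate 4 (-0.29, adjusted p = 0.0475).

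Lrp1, the large endocytic receptor that takes up prosaposin with its progranulin cargo, fell with the loss of Grn under the Rosa26 edit. It was at 169, 205, 221 and 285 CPM in WT Rosa26 and at 139, 167, 161 and 227 CPM in GrnKO Rosa26, batches 1 to 4. In TKO cells it was at 219, 229.9, 271 and 227 CPM in WT and at 193, 191, 189 and 268 CPM in GrnKO. The groups overlapped in every comparison. GrnKO Rosa26 was lower than WT Rosa26 in each of the 4 batches, by the least in batch 1 (-0.28). The fall with the loss of Grn in Rosa26 cells was -0.34 ± 0.10 (edgeR adjusted p = 0.0112), and -0.35 without the replicate block (adjusted p = 0.0949), -0.29 without batches 3 and 4 (adjusted p = 0.0672) and -0.30 without WT Rosa26 replicate 4 (adjusted p = 0.0506). In limma on the authors' values it was smallest, at -0.23 (adjusted p = 0.0762 with pseudocount 1 and 0.0757 with 0.5). GrnKO TKO cells were at -0.06 ± 0.10 against WT Rosa26 (adjusted p = 0.774).

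The edit raised Lrp1 in GrnKO by 0.29 ± 0.10 (edgeR adjusted p = 0.0396), in 4 of 4 batches, a call that was lost in 13 of 31 alternatives. Among single libraries it was lost without GrnKO Rosa26 replicate 1 (0.25, adjusted p = 0.136), 2 (0.32, adjusted p = 0.0576) or 3 (0.26, adjusted p = 0.0867), GrnKO TKO replicate 1 (0.23, adjusted p = 0.150) or 4 (0.26, adjusted p = 0.109), or WT Rosa26 replicate 2 (0.28, adjusted p = 0.0544). Without the replicate block it was 0.28 (adjusted p = 0.212). In WT the edit gave 0.13 ± 0.10 (adjusted p = 0.565), and the 2 edit effects were not shown to differ (0.15 ± 0.15, adjusted p = 0.524). The loss of Grn in TKO cells gave -0.19 ± 0.10 (adjusted p = 0.324), and -0.33 without WT TKO replicate 4 (adjusted p = 0.0398).

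Tmem106b encodes a lysosomal membrane protein whose cut end forms filaments in aged human brain. It was at 58.5, 58.2, 72.1 and 60.3 CPM in WT Rosa26 and at 82.2, 82.1, 76.9 and 85.5 CPM in GrnKO Rosa26, batches 1 to 4. In TKO cells it was at 76.8, 68.4, 76.6 and 72.6 CPM in WT and at 71.7, 82.5, 63.1 and 81.3 CPM in GrnKO. The Rosa26 groups did not overlap, with WT replicate 3 nearest to GrnKO, while the TKO groups overlapped widely. The rise with the loss of Grn in Rosa26 cells was 0.39 ± 0.09 (edgeR adjusted p = 0.00252), 1.31-fold, from 62.3 ± 6.62 to 81.7 ± 3.57 CPM (SD, n = 4), and between 0.09 in batch 3 and 0.50 in batch 4.

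In TKO cells the loss of Grn gave Tmem106b 0.02 ± 0.09 (edgeR adjusted p = 0.935). The edit gave 0.24 ± 0.09 in WT (adjusted p = 0.199) and -0.13 ± 0.09 in GrnKO (adjusted p = 0.303). Their difference was -0.37 ± 0.13 (adjusted p = 0.0707), of 1 sign in 4 of 4 batches. It passed without WT Rosa26 replicate 3 (-0.49, adjusted p = 0.00650) or GrnKO TKO replicate 2 (-0.44, adjusted p = 0.0299) in limma on the authors' values (-0.43, adjusted p = 0.0320) and with batch as a block within each genotype (-0.38, adjusted p = 0.00925). The edit in WT passed too without WT Rosa26 replicate 3 (0.35, adjusted p = 0.0287) and with that block (0.24, adjusted p = 0.0429). GrnKO TKO cells were at 0.26 ± 0.09 against WT Rosa26 (adjusted p = 0.0787), and at 0.37 without WT Rosa26 replicate 3 (adjusted p = 0.00765) and 0.36 without GrnKO TKO replicate 3 (adjusted p = 0.0200).

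Slpi encodes the secretory leukocyte protease inhibitor, which binds progranulin and shields it from elastase. It was barely detected, and its values are the least precise of the 8. The deposited counts were 4, 17, 15 and 29 in WT Rosa26 and 36, 71, 34 and 63 in WT TKO, batches 1 to 4, which gave 0.616, 1.16, 0.676 and 1.59 CPM and 1.97, 4.41, 2.00 and 2.86 CPM. In GrnKO Rosa26 the counts were 26, 18, 19 and 31, and in GrnKO TKO they were 32, 22, 21 and 21, all between 0.548 and 1.77 CPM. Every WT TKO library was above every library of the other groups, by the least margin between replicate 1 of WT TKO and replicate 1 of GrnKO TKO.

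The edit in WT raised Slpi by 1.40 ± 0.35 (edgeR adjusted p = 0.0329), 2.64-fold, in 4 of 4 batches. The loss of Grn in TKO cells gave -1.36 ± 0.33 (edgeR adjusted p = 0.0232), lower in 4 of 4 but unevenly. The values of batches 1 to 4 were -0.16, -2.60, -0.86 and -1.74, so batch 1 showed little change. Both calls rest on the WT TKO libraries, so they are not separate observations. Without a single WT library the adjusted p of the edit rose past the threshold for WT Rosa26 replicates 1 (1.26, adjusted p = 0.0924), 2 (1.45, adjusted p = 0.101) and 3 (1.26, adjusted p = 0.0676). It rose past it also for WT TKO replicates 2 (1.01, adjusted p = 0.176), 3 (1.47, adjusted p = 0.0515) and 4 (1.47, adjusted p = 0.0766). In all, the call was lost in 11 of 30 alternatives, among them without each of the 4 batches in turn (adjusted p from 0.0547 to 0.197) and without batches 3 and 4 (1.71, adjusted p = 0.170). The fall with Grn loss in TKO cells lost its call without WT TKO replicate 2 (-0.98, adjusted p = 0.149) or 3 (-1.42, adjusted p = 0.0557) and without GrnKO TKO replicate 2 (-1.08, adjusted p = 0.147) or 4 (-1.15, adjusted p = 0.109). It was lost also without batch 2 (-0.89, adjusted p = 0.319), batch 4 (-1.24, adjusted p = 0.144) or batches 3 and 4 (-1.42, adjusted p = 0.267), and with only the groups compared in the model (-1.36, adjusted p = 0.0561). The remaining tests of Slpi did not pass, with 0.51 ± 0.35 for the edit in GrnKO (adjusted p = 0.289), -0.47 ± 0.38 for the loss of Grn in Rosa26 cells (adjusted p = 0.334), an interaction of -0.89 ± 0.50 (adjusted p = 0.245) and 0.04 ± 0.38 for GrnKO TKO against WT Rosa26 (adjusted p = 0.959).

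Slpi is also a neutrophil product, and the 11 neutrophil markers are given beside it. Only S100a8 and Mmp8 among them passed the filter, and S100a9, Ly6g, Camp and Elane were at most at 0.118, 0.118, 0.154 and 0.0913 CPM in any library. The summed level of the list in WT was 16.2 to 23.1 CPM with the Rosa26 edit and 26.4 to 30.4 CPM with the TKO edit, and in GrnKO 21.4 to 28.5 and 19.0 to 26.8 CPM. Its part in the Slpi values was not tested. That sum was higher in WT TKO than in WT Rosa26 without overlap, and it was almost all S100a8 (6.92 to 14.3 CPM) and Mmp8 (7.17 to 15.5 CPM).

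Fam171a2 and Slc25a39, which lie near Grn on chromosome 11, were higher in GrnKO cells with either edit. In GENCODE M21 (GRCm38) the Grn gene lies on the plus strand and Fam171a2 on the minus strand, tail to tail, with ends that overlap by 68 bases. In RefSeq GRCm38.p6 the same ends are 171 bases apart. Slc25a39 lies on the minus strand on the other side, 22.4 kb from Grn and head to head with it. Whether the authors counted tags by strand is not given in the sources used here, so at overlapping 3′ ends the tags of Grn and Fam171a2 may not be fully told apart, and the Fam171a2 values are uncertain for that reason.

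Fam171a2 encodes a membrane protein of poorly known function in macrophages. Its deposited counts were 6, 14, 16 and 20 in WT Rosa26 and 150, 180, 150 and 250 in GrnKO Rosa26, batches 1 to 4, which gave 0.923, 0.958, 0.721 and 1.10 CPM and 5.36, 5.48, 5.24 and 7.37 CPM. In TKO cells the counts were 34, 13, 12 and 27 in WT (1.86, 0.808, 0.707 and 1.23 CPM) and 61, 150, 92 and 120 in GrnKO (3.37, 4.95, 4.84 and 4.88 CPM). All 8 GrnKO libraries were above all 8 WT libraries, and replicate 1 was the WT TKO library nearest to GrnKO and the GrnKO TKO library nearest to WT. How many of all genes separate in this way was not computed. The rise was 2.67 ± 0.25 in Rosa26 cells (edgeR adjusted p = 2.0e-07), 6.35-fold, and 1.97 ± 0.24 in TKO cells (adjusted p = 7.7e-05), 3.93-fold. By size of change Fam171a2 ranked 66 of all 15385 tested genes in the first and 15 in the second.

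Within batches the Fam171a2 rise was 2.51 to 2.86 in Rosa26 cells and 0.85 to 2.77 in TKO cells, the least in batch 1. Without batches 3 and 4 it was 2.51 (adjusted p = 2.4e-04) and 1.63 (adjusted p = 0.0561). The edit passed for it in neither genotype (WT 0.33 ± 0.30, adjusted p = 0.642; GrnKO -0.36 ± 0.20, adjusted p = 0.176), although every GrnKO TKO library was below every GrnKO Rosa26 library. With only the 2 GrnKO groups in the model it passed, at -0.35 (adjusted p = 0.0352). The interaction was -0.69 ± 0.36 (adjusted p = 0.210). The rise of Fam171a2, in CPM, was from 0.925 ± 0.155 to 5.86 ± 1.01 (SD, n = 4) in Rosa26 cells.

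Slc25a39 encodes a mitochondrial carrier that imports glutathione. It was at 154, 151, 139.7 and 148 CPM in WT Rosa26 and at 204, 173, 175 and 177 CPM in GrnKO Rosa26, batches 1 to 4. In TKO cells it was at 148, 149, 136 and 145 CPM in WT and at 193, 175, 210.3 and 179 CPM in GrnKO. As with Fam171a2, all 8 GrnKO libraries were above all 8 WT libraries, though by a smaller ratio, and again the share of all genes that do so was not computed. The rise was 0.30 ± 0.07 in Rosa26 cells (edgeR adjusted p = 0.00326), 1.23-fold, and 0.39 ± 0.07 in TKO cells (adjusted p = 0.00475), 1.31-fold, higher in 4 of 4 batches both times.

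Without batches 3 and 4 the Slc25a39 changes were 0.31 in Rosa26 cells (adjusted p = 0.0465) and 0.30 in TKO cells (adjusted p = 0.282). The deposited values were rounded by up to 5% each. The edit gave Slc25a39 -0.03 ± 0.08 in WT (adjusted p = 0.868) and 0.06 ± 0.07 in GrnKO (adjusted p = 0.593), with an interaction of 0.09 ± 0.11 (adjusted p = 0.605). Its level in GrnKO TKO cells was above WT Rosa26 by 0.35 ± 0.07 (adjusted p = 0.00455), a call lost without batches 3 and 4 (0.27, adjusted p = 0.152) and with only the groups compared in the model (0.35, adjusted p = 0.0710). For Fam171a2 the same comparison gave 2.31 ± 0.26 (adjusted p = 2.1e-05).

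Of the 8 nearest genes on each side of Grn in RefSeq gene order, 14 of 16 were found in the table, and Ubtf, Rundc3a, Itga2b and Gpatch8 passed the filter beside Fam171a2 and Slc25a39. Gpatch8, on the side of Fam171a2, rose with the loss of Grn in Rosa26 cells by 0.25 ± 0.08 (edgeR adjusted p = 0.0118), and Rundc3a, which lies next to Slc25a39, rose by 1.18 ± 0.44 (adjusted p = 0.0381) at a mean of at most 1.45 CPM. Ubtf, which encodes a factor of ribosomal RNA transcription, fell (-0.37 ± 0.14, adjusted p = 0.0399), and Itga2b, the next gene after Fam171a2, gave 0.36 ± 0.37 (adjusted p = 0.450). In TKO cells the changes were 0.07 ± 0.08 (adjusted p = 0.686) for Gpatch8, 0.75 ± 0.43 (adjusted p = 0.358) for Rundc3a, -0.19 ± 0.14 (adjusted p = 0.505) for Ubtf and -0.07 ± 0.33 (adjusted p = 0.940) for Itga2b.

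**Figure D3:**
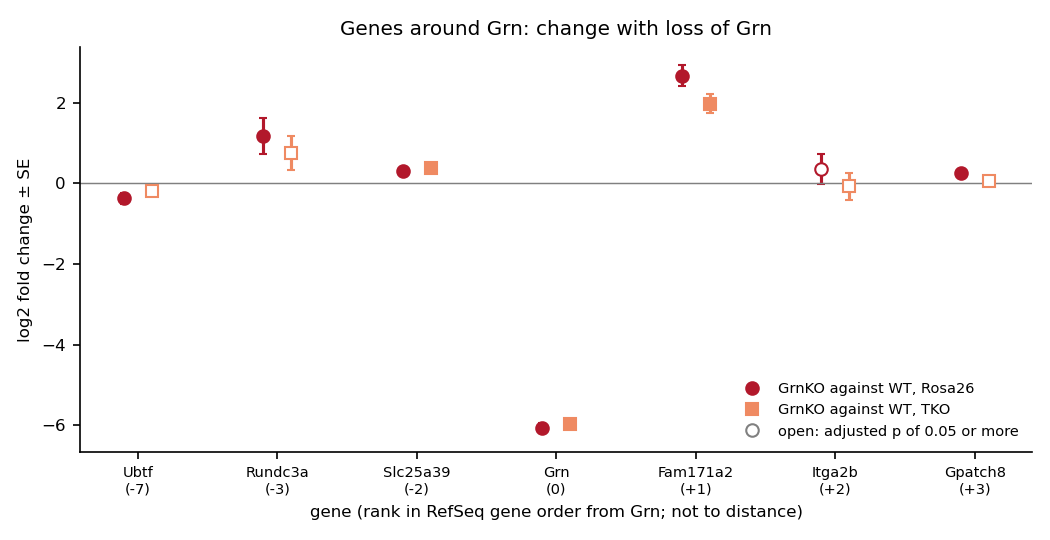
Log2 fold change ± SE with the loss of Grn (vertical axis) of the 7 tested genes around Grn, in Rosa26 cells (red circles) and TKO cells (orange squares), with open markers for an adjusted p of 0.05 or more. The horizontal axis is the rank in gene order, not distance. Grn is near -6, Fam171a2 between 1.97 and 2.67, and Slc25a39 is above 0 in both.

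Of the 8 tested proteases that cut progranulin into granulins, 4 rose and 1 fell with the loss of Grn in Rosa26 cells, with a median of 0.13 against 0.00 over all genes. The counts of this and the following lists stand against 44.6% of all genes called for the loss of Grn in Rosa26 cells and 32.6% for the edit in GrnKO, and the 5 of 8 here are near the first. Ctsk, the collagen-degrading cathepsin K, went from 1.06 ± 0.264 to 3.16 ± 0.752 CPM (1.57 ± 0.24, edgeR adjusted p = 3.7e-05), and Ctsb rose by 0.24 ± 0.07 (adjusted p = 0.00827). Ctsl, cathepsin L, fell by 0.31 ± 0.09 (adjusted p = 0.00786). With the edit in GrnKO 6 of the 8 fell and 2 rose (median -0.30), among them Ctsk (-1.50 ± 0.22), Ctsd (-0.38 ± 0.07), the protease linked to neuronal ceroid lipofuscinosis, and, as a rise, the membrane-bound matrix protease Mmp14 (1.12 ± 0.21). In WT, where 3.35% of all genes were called, the edit moved 2 of the 8. Mmp14 was up (1.48 ± 0.21, edgeR adjusted p = 3.5e-04) and Ctsd down (-0.27 ± 0.07, adjusted p = 0.0306).

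Of 11 genes of export from the ER and of transport from the Golgi to the lysosome, 8 rose and 1 fell with the loss of Grn in Rosa26 cells (median 0.39), and 5 fell with the edit in GrnKO (median -0.16), against 44.6% and 32.6% of all genes called. Cln8, which carries lysosomal enzymes out of the ER, went from 55.0 ± 8.89 to 126.7 ± 15.7 CPM with the loss of Grn (1.20 ± 0.09, edgeR adjusted p = 6.8e-09) and fell with the edit in GrnKO (-0.73 ± 0.08, adjusted p = 5.8e-06). Igf2r, the cation-independent mannose 6-phosphate receptor, rose by 0.81 ± 0.10 (adjusted p = 2.9e-06) and fell with the edit by 0.87 ± 0.10 (adjusted p = 3.3e-06). Surf4, an export receptor reported to carry progranulin out of the ER, fell with the edit in GrnKO by 0.38 ± 0.07 (adjusted p = 7.8e-04). In TKO cells 1 of the 11 rose with the loss of Grn, Cln8 (0.43 ± 0.09, adjusted p = 0.00587), against 4.99% of all genes called there. In GrnKO TKO against WT Rosa26 cells 5 of the 11 were higher, against 12.7% of all genes called. Cln8 (0.47 ± 0.09, edgeR adjusted p = 0.00190) had the least p of these. Of the 4 other Vps10p-domain receptors only Sorl1 passed the filter, and it rose with the loss of Grn in Rosa26 cells by 0.59 ± 0.19 (adjusted p = 0.0176).

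Of 10 relatives of Lrp1 and its chaperone, 5 rose and 2 fell with the loss of Grn in Rosa26 cells (median 0.30), 2 fell and 2 rose with the edit in GrnKO (median -0.15), and 3 passed the interaction, Lrp12, Lrp10 and Lrp6, all negative, against 44.6%, 32.6% and 13.4% of all genes called. Lrp12 went from 70.5 ± 22.8 to 173.6 ± 19.3 CPM with the loss of Grn (1.32 ± 0.10, edgeR adjusted p = 2.1e-08) and was at 98.8 ± 13.6 CPM after the edit in GrnKO (-0.82 ± 0.10, adjusted p = 1.2e-05). Lrp8, a receptor for reelin and apolipoprotein E, fell by 0.79 ± 0.16 (adjusted p = 7.9e-04) with the loss of Grn and rose with the edit in GrnKO (0.54 ± 0.16, adjusted p = 0.0149). Between the TKO groups the loss of Grn gave Lrp12 0.34 ± 0.10 (adjusted p = 0.0594) and Lrp8 -0.19 ± 0.16 (adjusted p = 0.570).

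Of 5 enzymes that saposins assist, 3 rose with the loss of Grn in Rosa26 cells (median 0.36) and the same 3, Gla, Galc and Glb1, fell with the edit in GrnKO (median -0.32), against 44.6% and 32.6% of all genes called. Gla, which removes galactose from globosides, went from 235.7 ± 9.05 to 435.6 ± 42.1 CPM (0.88 ± 0.07, edgeR adjusted p = 3.2e-08). Galc, the galactosylceramidase, rose by 0.84 ± 0.10 (adjusted p = 2.3e-06) and Glb1, a beta-galactosidase, by 0.36 ± 0.09 (adjusted p = 0.00485). Gla and Galc also rose with the loss of Grn in TKO cells, where 4.99% of all genes were called, by 0.40 ± 0.07 (adjusted p = 0.00315) and 0.36 ± 0.10 (adjusted p = 0.0376).

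All 5 genes of the Tmem106 family and of TMEM106B partners rose with the loss of Grn in Rosa26 cells (median 0.34, with 44.6% of all genes called), led by Atp6ap1, an accessory subunit of the proton pump (0.64 ± 0.09, edgeR adjusted p = 1.2e-05), and Tmem106a (0.34 ± 0.07, adjusted p = 0.00109). With the edit in GrnKO these 2 fell, by 0.45 ± 0.09 (adjusted p = 7.8e-04) and 0.41 ± 0.07 (adjusted p = 4.1e-04). Of the 5 surface receptors reported to bind progranulin 2 rose and 1 fell in Rosa26 cells lacking Grn, near the 44.6% of all genes, the 2 being the TNF receptors Tnfrsf1b (0.44 ± 0.09, adjusted p = 6.7e-04) and Tnfrsf1a (0.41 ± 0.10, adjusted p = 0.00196), and the third Epha2 (-1.65 ± 0.42, adjusted p = 0.00364), which was at a mean of at most 1.20 CPM in any group. With the TKO edit the loss of Grn gave Epha2 -1.28 ± 0.38 (adjusted p = 0.0596). The edit in WT, where 3.35% of all genes were called, raised 2 of these 5 receptors. They were Tnfrsf1b (0.37 ± 0.09, edgeR adjusted p = 0.0300) and Notch1 (0.46 ± 0.12, adjusted p = 0.0440).

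Of 9 genes with a WAP domain, the fold of Slpi, 2 passed the filter. Wfdc17 fell with the loss of Grn in both edits, from 327.6 ± 35.0 to 225.6 ± 20.2 CPM in Rosa26 cells (-0.54 ± 0.09, edgeR adjusted p = 1.2e-04) and from 431 ± 20.0 to 321 ± 51.7 CPM in TKO cells (-0.44 ± 0.09, adjusted p = 0.00938), and it rose with the edit in both genotypes (WT 0.40 ± 0.09, adjusted p = 0.0201; GrnKO 0.50 ± 0.09, adjusted p = 4.9e-04). Of the elastase list only Serpinb1a, an inhibitor of neutrophil proteases, passed the filter. It rose with the loss of Grn in both edits (1.29 ± 0.16, adjusted p = 4.0e-06, in Rosa26 cells and 1.36 ± 0.17, adjusted p = 7.6e-05, in TKO cells) and fell with the edit in both genotypes (-0.73 ± 0.18, adjusted p = 0.0253, and -0.66 ± 0.15, adjusted p = 0.00238).

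Fam171a1, the relative of Fam171a2 that lies elsewhere in the genome, went from 4.15 ± 0.637 to 8.35 ± 2.31 CPM with the loss of Grn in Rosa26 cells (0.95 ± 0.20, edgeR adjusted p = 8.6e-04) and fell with the edit in GrnKO (-0.88 ± 0.19, adjusted p = 0.00192). In TKO cells it gave 0.44 ± 0.21 (adjusted p = 0.257). Of the 7 genes of the SLC25A39 list, 2 rose and 2 fell with the loss of Grn in Rosa26 cells, near the 44.6% of all genes. Gclm, a subunit of the enzyme that starts glutathione synthesis, fell there (-0.51 ± 0.10, adjusted p = 2.9e-04) and in TKO cells (-0.49 ± 0.10, adjusted p = 0.00546), while Gsr, glutathione reductase, rose in Rosa26 cells (0.90 ± 0.12, adjusted p = 8.3e-06). The paralogue Slc25a40 gave -0.03 ± 0.12 (adjusted p = 0.843). With the edit in WT, where 3.35% of all genes were called, 3 of the 7 rose. They were Gclc (0.45 ± 0.10, edgeR adjusted p = 0.0129), Slc7a11 (0.93 ± 0.21, adjusted p = 0.0184) and Gss (0.48 ± 0.12, adjusted p = 0.0357).

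Of 10 tested genes linked to frontotemporal dementia 3 rose and 4 fell with the loss of Grn in Rosa26 cells, with a median of -0.08, where 44.6% of all genes were called. Optn, an autophagy receptor, rose (0.63 ± 0.10, edgeR adjusted p = 4.0e-05), as did Vcp (0.48 ± 0.09, adjusted p = 1.8e-04), an ATPase that unfolds proteins, and Tia1, a stress granule protein, fell (-0.62 ± 0.12, adjusted p = 2.8e-04). In TKO cells the loss of Grn gave Tia1 -0.24 ± 0.11 (adjusted p = 0.271) and Optn 0.16 ± 0.09 (adjusted p = 0.382).

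**Figure D4:**
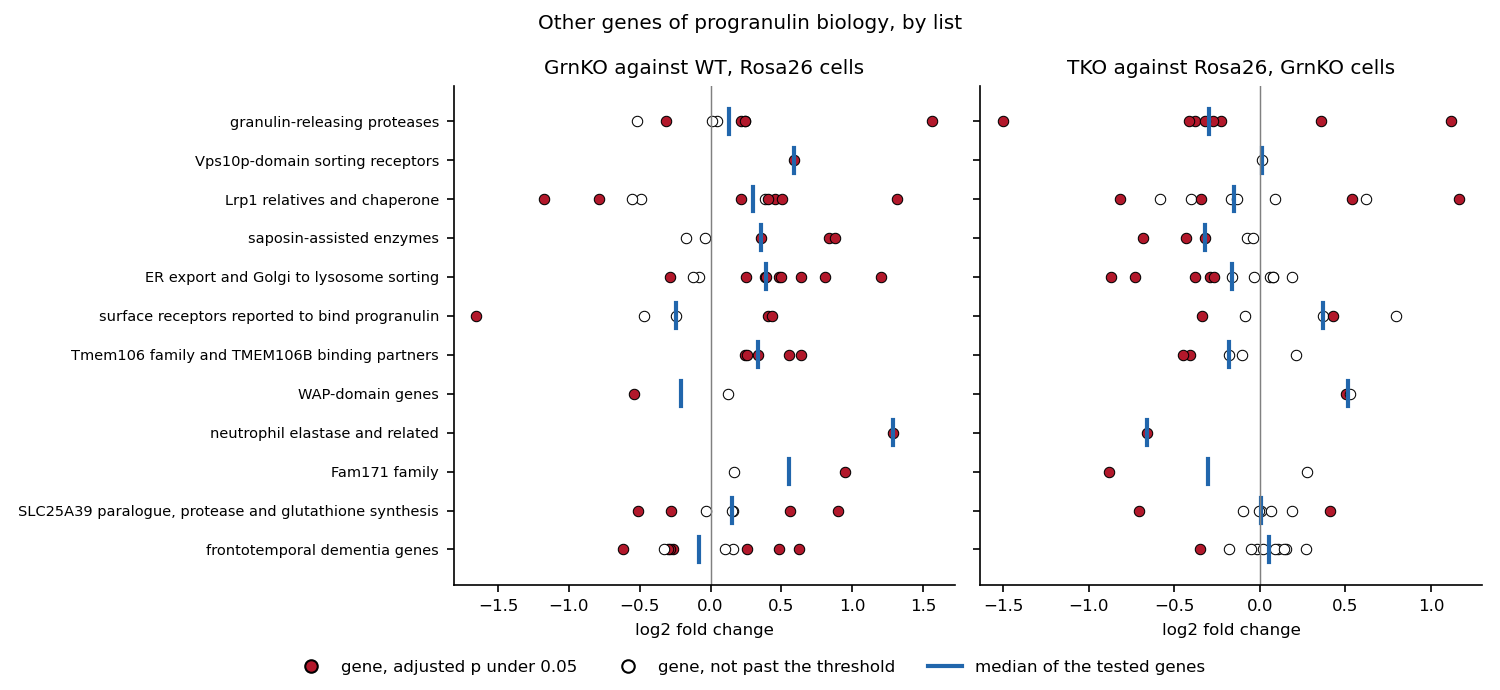
Log2 fold change (horizontal axes) of each tested gene of the 12 lists, with the loss of Grn in Rosa26 cells (left) and with the edit in GrnKO cells (right). Filled circles passed an adjusted p under 0.05, open circles did not, and blue bars are the median of each list. Most medians lie above 0 on the left. On the right those of proteases, saposin-assisted enzymes and ER export and Golgi to lysosome sorting lie below 0. So do those of the Lrp1 relatives and of the Tmem106, elastase and Fam171 lists, while the other medians lie above 0.

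Over the 16 libraries the genes whose log2 level followed each of the 8 most closely, among 9704 or 9705 genes averaging at least 5 CPM, are given as a description, since the libraries share 4 groups and 4 batches. The highest Pearson r with Sort1 were those of Igf2r (0.976), Acaca (0.964), which makes malonyl-CoA, and Dner (0.961). For Psap they were Adra1a (0.954), Gpnmb (0.954), a lysosomal and surface glycoprotein, and Tfrc (0.945), the transferrin receptor, whose human form is the knock-in of all these mice. For Grn they were Arg1 (0.914), Tcf12 (0.913) and Xylt2 (0.908). Arg1 in WT was at 13.1 ± 1.62 CPM (Rosa26) and 13.2 ± 2.83 CPM (TKO), and in GrnKO at 2.42 ± 0.265 and 5.34 ± 0.676 CPM.

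The nearest to Tmem106b were Vcpip1 (0.949), Vps37a (0.936) and Samd8 (0.933), and the nearest to Lrp1 were Kmt2c (0.938), Trrap (0.847) and Kmt2d (0.842). For Slpi they were Ski (0.942), Clec4n (0.915), the dectin-2 receptor, and Zbtb2 (0.878). Clec4n was at 60.0 ± 21.9 CPM in WT Rosa26 and 223.8 ± 63.3 CPM in WT TKO, against 36.8 ± 2.69 and 86.4 ± 31.2 CPM in GrnKO Rosa26 and GrnKO TKO. Fam171a2 was followed by Atp6v0d1 (0.952), Slc9a9 (0.950) and Fam50a (0.946). Slc25a39 was followed by 2 rows of the symbol Pakap (0.906 for ENSMUSG00000089945 and 0.873 for ENSMUSG00000038729) and by Dnajb6 (0.853).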

How the data were processed

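QuantSeq-type 3′ tag libraries of 16 samples were used. The authors deposited estimated counts per gene, which in the file keep 2 significant digits (rounding of up to 5% per value), and a normalised signal, CPM of effective library size, that served for the limma alternatives and for no main result. The submitters' processing notes name STAR 2.7.9a, Salmon 1.10.1, edgeR 4.6.2, R 4.5.1 and the build GRCm39, without their roles; the handling of molecular identifiers and of strand is not given in the sources used here. Of the non-zero estimated counts, 11.0% were not whole, and all were rounded to whole numbers. 148 rows repeat the symbol of an earlier row, and such rows were kept apart by gene ID.

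Genes were filtered with filterByExpr (15385 of 56980 kept), scaled by TMM and fitted over all 16 samples with edgeR 4.0.16 (R 4.3.3), quasi-likelihood with the robust option, group and batch as terms, and Benjamini-Hochberg adjustment over all genes tested at 0.05. The biological coefficient of variation was 12.0%. CPM are scaled by TMM, with no correction for length. Alternatives were no replicate block, RLE scaling, no filter, a mean of 5 CPM, no robust option, DESeq2 1.42.0, limma 3.58.1 on the deposited signal with pseudocounts 1 and 0.5, only the groups compared, each batch and each library left out, and no batches 3 and 4.

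The replicate number is the batch in the labels. Libraries of 1 batch and genotype deviated from their group means together (mean r 0.544, 0.388 to 0.653 over 8 pairs), those of 1 batch and the other genotype less (mean 0.118 over 16 pairs), and batch is a term of the fit common to both genotypes. Since the tie lies mainly within a genotype, a fit with batch as a block within genotype, chosen after seeing the data, was added for the comparisons of the edit; it cannot give genotype comparisons. Depth was 7069527 to 32969630 counts, and p-values measure the spread between these samples, pooled over all groups. With such pairs that spread can be too small for genotype comparisons and too large for those of the edit. With only the groups compared, calls over all genes went from 6858 to 5425 and from 767 to 488 for the loss of Grn in Rosa26 and TKO cells. They went from 515 to 680 and from 5011 to 7152 for the edit in WT and GrnKO. Those fits also hold fewer libraries.

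All 8 genes are named in every comparison, from each list up to 3 called genes, those with the least p in a comparison, all tested genes of the locus, and the 3 genes of highest r. Slc25a40, and values of list genes in a comparison where they were not called, were added after their values were seen. The genes and the lists were chosen with earlier results of these data known. Promoter sequences and gene order come from GRCm38 tables, and no coordinate of the deposited build is given. Of the lists, 2 genes are not reported here and are left out of the counts and medians.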

Additional observations from a re-analysis of the deposited data

Results flagged for a closer look

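In 6 of 32 groups of 4 libraries the highest or lowest library stood apart by Dixon's test at its 95% critical value, where chance gives about 1 group in 20. Grn was lowest in WT TKO replicate 1 (2522 CPM). Lrp1 was highest in GrnKO TKO replicate 4 (268 CPM) and Tmem106b in WT Rosa26 replicate 3 (72.1 CPM). Fam171a2 was highest in GrnKO Rosa26 replicate 4 (7.37 CPM) and lowest in GrnKO TKO replicate 1 (3.37 CPM). Slc25a39 was highest in GrnKO Rosa26 replicate 1 (203.8 CPM). The effect of the edit on Sort1 differed between the genotypes, with an interaction of -0.51 (edgeR adjusted p = 0.0380), a call lost in 18 of 30 alternatives, among them no replicate block (adjusted p = 0.0822) and no batches 3 and 4 (adjusted p = 0.25). What sets these values apart was not tested.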

How the results depend on the processing

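Over up to 31 alternatives the number of the 8 genes past the threshold was 6 to 7 for the loss of Grn in Rosa26 cells (7 in the main analysis) and 2 to 4 for the edit in GrnKO (3). In every comparison of GrnKO with WT the count includes Grn, the gene knocked out. For the edit in WT it was 2, 1 without the replicate block, with a mean of 5 CPM, in limma with either pseudocount and without batches 3 and 4, 3 with the replicate block within genotype, and 0 to 2 with a library or batch left out. For the loss of Grn in TKO cells it was 4, 1 without batches 3 and 4 (78 calls over all genes, against 767), 3 with a mean of 5 CPM or only the groups compared, and 3 to 5 with a library or batch left out. For the interaction it was 1, 0 without the replicate block and without batches 3 and 4, 3 with no filter, in limma with either pseudocount and with the replicate block within genotype, and 0 to 2 with a library or batch left out. For GrnKO TKO against WT Rosa26 it was 3, 5 with no filter, 4 in DESeq2, limma and with a mean of 5 CPM, 2 with only the groups compared (502 calls over all genes, against 1950), and 3 to 4 with a library or batch left out. Over all genes, dropping the replicate block lowered the calls from 515 to 216 for the edit in WT and from 2067 to 910 for the interaction, and the block within genotype, added after seeing the data, raised them to 1171 and 3607. The cause was not tested.

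Direction changed only where no change had passed. The edit in WT gave Grn -0.21 to 0.039 and Fam171a2 -0.038 to 0.49 with libraries or batches left out, and Slc25a39 0.0014 with no filter. The edit in GrnKO gave Grn 0.0048 with RLE scaling, 0.050 with a mean of 5 CPM, 0.0046 in DESeq2, 0.010 with only the groups compared, and -0.082 to 0.072 with libraries or batches left out. It gave Slc25a39 -0.014 with no filter, -0.037 without batches 3 and 4 and -0.032 to 0.11 with libraries or batches left out. The loss of Grn in TKO cells gave Tmem106b -0.067 to 0.11 with libraries or batches left out. The interaction of Grn was -0.0080 with no filter, -0.0030 and -0.0037 in limma and -0.0031 to 0.22 with libraries or batches left out, and that of Slc25a39 was -0.015 with no filter and -0.0049 without batches 3 and 4. GrnKO TKO against WT Rosa26 gave Sort1 0.039 and Lrp1 0.042 without batches 3 and 4, Lrp1 -0.14 to 0.0024 and Slpi -0.34 to 0.44 with libraries or batches left out. With only the groups compared there is no interaction, and a mean of 5 CPM drops Slpi, whose 4 to 71 counts per library limit it most.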
